A study of Mus musculus with 9 samples.

Results

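RNA of wild-type mouse hearts was sequenced in bulk, and the results below concern 48 genes of DNA replication and S phase, the stage of the cell cycle in which the genome is copied. They were taken by gene symbol from a list covering origin licensing, helicase activation, polymerases, the sliding clamp and its loader, nucleotide supply, chromatin copying, S-phase cyclins with E2F factors, and fork protection. All 48 were found among the 25468 genes of the data. A mean level of at least 1 FPKM over the libraries was reached by 43 of them, and Orc1, Cdc6, Mcm10, Ccne1 and Exo1 were below it. FPKM is the number of sequenced fragments scaled to transcript length and library size. The 9 libraries formed 3 groups of 3: wild-type hearts after sham operation, wild-type hearts 1 day after surgery that caused an acute myocardial infarction, and wild-type hearts 7 days after it. All 3 groups are of the same genotype, and the labels give no strain, age, sex, heart region or collection day of the sham hearts, and do not say that replicates were separate animals. The error behind each p-value is thus that among these replicates, part of which may be technical. Hearts of Hdc-/- mice, which lack the histamine-forming enzyme, are described in the series and were not analysed here.

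A cell prepares to copy its DNA by loading the ring-shaped MCM2-7 helicase onto replication origins, with the help of the origin recognition complex, CDC6 and CDT1. At the start of S phase CDC45 and the GINS complex join the helicase, and primase, polymerases and the clamp PCNA then build the new strands while ribonucleotide reductase and its partners supply deoxynucleotides. Many of these genes are transcribed under the control of E2F factors, so they are read as a signature of cells entering or passing through S phase. The adult heart muscle cell divides little, whereas fibroblasts, endothelial cells and leukocytes of the heart can proliferate after an infarction.

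The number of reads behind the values is unknown, because reads had been divided among transcripts before deposit. FPKM over all genes summed to 768943 to 792632 in sham, 597380 to 729940 at day 1 and 521643 to 679204 at day 7. Mitochondrially encoded genes took 38.5% to 39.6% of it in sham, 34.2% to 39.8% at day 1 and 24.4% to 38% at day 7. The summed FPKM of 8 heart muscle markers was 30113 to 32848 in sham, 15709 to 19349 at day 1 and 12421 to 21726 at day 7, so the labelled tissue was seen in every library. Markers of other tissues set some libraries apart. The 5 airway epithelium markers summed to 212 FPKM in sham replicate 1, to 1625 in day 1 replicate 2 and to at most 18.2 in the others. The sum of 4 fat cell markers was 472 in sham replicate 1, and that of 5 skeletal muscle markers was 185 in day 7 replicate 2. Summed atrial markers ranged from 229 to 2677 in sham, from 282 to 11057 at day 1 and from 775 to 5405 at day 7. The part of these tissues in the results was not tested, and counts without both libraries with airway markers are given beside the main ones.

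At day 1 most replication genes were above sham. Of the 43 tested, 33 rose and 0 fell at an adjusted p under 0.05 (limma on log2(FPKM + 1), Benjamini-Hochberg over 13514 genes), where 13.4% of all genes tested rose and 14.7% fell. The median log2 fold change was 0.75 for the replication genes and -0.01 for all genes tested. In 41 of the 48 genes every day 1 library exceeded every sham library, as 22.5% of all genes tested did, and in Dut alone every day 1 library was below every sham library, as in 25.1% of all. At day 7, 20 of the 43 rose and 0 fell, against 15.7% and 17.3% of all genes tested, with a median of 0.41 beside -0.02. With libraries rescaled to a common total, 36 genes rose at day 1 and 34 at day 7. By that scaling, 2445 and 3809 of the 13514 genes tested rose. At an unadjusted p under 0.05, 34 genes were above and 0 below sham at day 1, and 24 were above and 1, Pold2, below at day 7. Of all genes tested, 19.1% were above and 22.1% below sham by that rule at day 1, and 21.4% and 24.3% at day 7. The groups did not overlap at day 7 in 31 genes that were higher, against 25.0% of all genes tested, and in Pold2, which was lower, against 28.8% of all. Without sham replicate 1 and day 1 replicate 2, the libraries with airway markers, 14 genes rose at day 1 and 7 at day 7, beside 256 and 1078 of the 13514 genes tested. In leave-one-out fits, 24 of the 33 calls at day 1 and 14 of the 20 at day 7 were kept whichever library was left out. At day 1, the calls of Mcm7, Gins1, Gins2, Pole, Pcna, Rfc2, Rfc3, E2f8 and Blm were each lost without any of 4 to 7 libraries, sham replicates 1 and 2 and day 1 replicate 2 among them for all 9. At day 7, Ccna2 was lost without sham replicate 2 (adjusted p = 0.0559, limma) and Mcm5 without sham replicate 1 or 2 or day 7 replicate 2 (up to 0.0617). Cdc45, Gins2, Pole and Lig1 were each lost without any of 5 to 8 libraries, sham replicates 1 and 2, day 1 replicate 2 and day 7 replicate 2 among them for all 4 (up to 0.141). In bulk tissue, more cells of a type and more RNA per cell cannot be told apart, so a level here is an average over all cells of the sample.

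**Figure D1:**
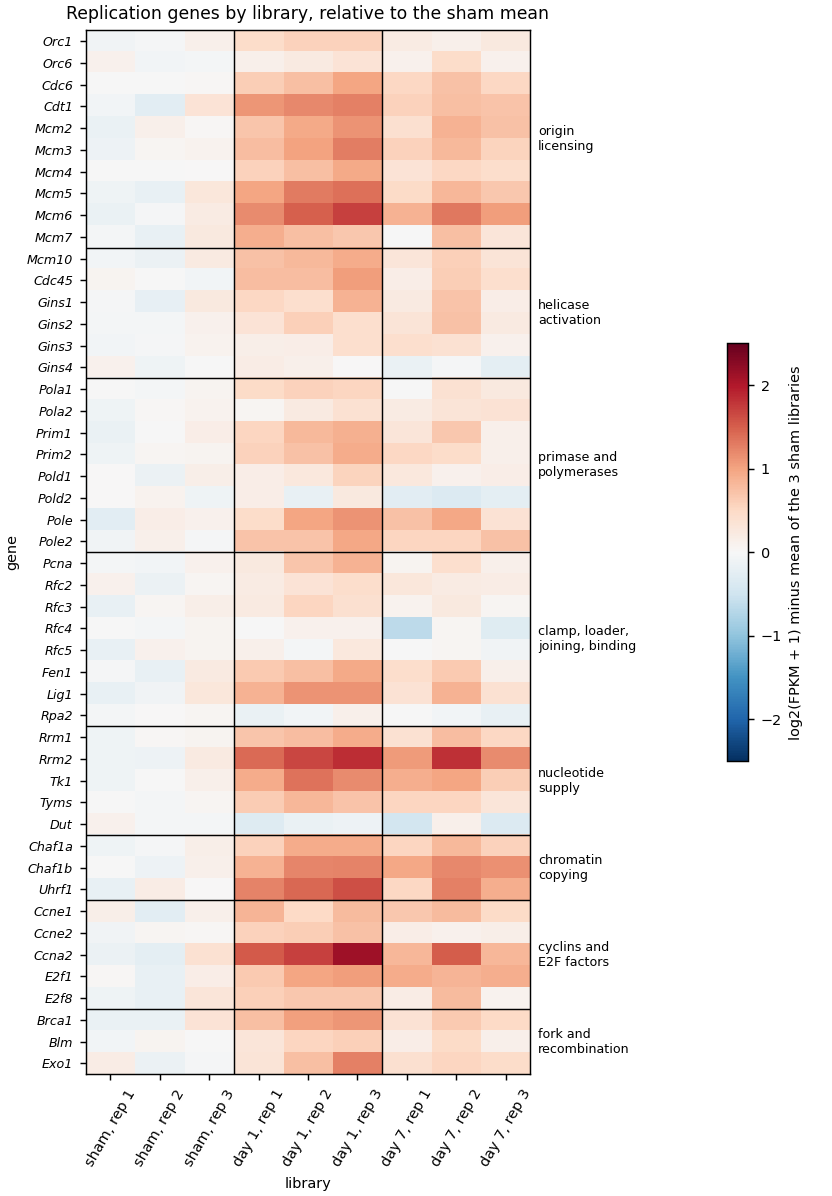
Heat map of log2(FPKM + 1) minus the mean of the 3 sham libraries, for the 48 replication genes (rows, ordered by role) in the 9 libraries (columns); red is above and blue below the sham mean. The day 1 columns are red in nearly every row and the day 7 columns are paler, while Dut, Pold2, Rfc4, Rpa2 and Gins4 stay near or under the sham mean.

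The genes that rose were mostly low in sham. The 33 genes called at day 1 had sham means of 0.369 to 22.6 FPKM with a median of 2.05, and their mean FPKM was 1.35 to 5.31 times the sham mean, with a median of 2.25. The 10 tested genes that were not called had sham means of 0.943 to 12.8 FPKM with a median of 5.74, and ratios of 0.859 to 1.39. Over all 48 genes, the ratio of mean FPKM was at least 2 in 25 genes at day 1 and in 15 at day 7, and at least 3 in 13 and 3 genes. Of the 43 tested genes, 9 had a sham mean under 1 FPKM and passed the minimum through the infarct groups. These were Cdt1, Gins3, Pole, Chaf1a, Chaf1b, E2f1, E2f8, Brca1 and Blm, of which 8 rose at day 1 and 5 at day 7. Among the 34 genes at or above 1 FPKM in sham, 25 rose at day 1 and 15 at day 7. At any sham level, 13.4% of all genes tested rose at day 1 and 15.7% at day 7. Shares of all genes by sham level were not taken.

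Most origin licensing genes were above sham at day 1. Of their 8 tested genes, 7 rose at day 1 and 6 at day 7, against 13.4% and 15.7% of all genes tested. Their median log2 fold changes were 0.96 and 0.65. Cdt1, among the rises at both times, had a sham mean just under 1 FPKM and passed the minimum level through the infarct groups. Cdt1, the loading factor for the MCM ring, was at 0.867, 0.647 and 1.48 FPKM in the sham libraries, 3.25, 3.54 and 3.70 at day 1 and 1.94, 2.30 and 2.21 at day 7. The 3 groups did not overlap, and its log2 fold change was 1.19 ± 0.15 (SE, adjusted p = 0.00268, limma) at day 1 and 0.68 ± 0.15 (adjusted p = 0.0126) at day 7. Its window and those of 5 MCM genes are printed to show which of these genes carry E2F-type letters at their start. Each window runs from 250 bases before to 50 after the start, 5′ to 3′ on the gene's strand, from RefSeq on GRCm38.p6. Capitals mark TTTCCCGC, TTTCGCGC, TTTGCCGC or TTTGGCGC on either strand, and overlapping matches run into 1 stretch of capitals. The positions are chr6:88898731-88899030 (minus strand) for Mcm2, chr1:20820263-20820562 (minus) for Mcm3, chr8:75109259-75109558 (plus) for Mcm5, chr1:128359656-128359955 (minus) for Mcm6, chr5:138171834-138172133 (minus) for Mcm7 and chr8:122567765-122568064 (plus) for Cdt1.
Mcm2: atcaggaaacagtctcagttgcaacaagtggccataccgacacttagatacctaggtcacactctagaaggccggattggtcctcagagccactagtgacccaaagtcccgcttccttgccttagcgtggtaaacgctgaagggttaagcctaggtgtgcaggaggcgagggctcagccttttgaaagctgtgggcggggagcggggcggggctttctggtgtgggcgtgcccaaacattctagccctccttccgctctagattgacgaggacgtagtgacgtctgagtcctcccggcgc
Mcm3: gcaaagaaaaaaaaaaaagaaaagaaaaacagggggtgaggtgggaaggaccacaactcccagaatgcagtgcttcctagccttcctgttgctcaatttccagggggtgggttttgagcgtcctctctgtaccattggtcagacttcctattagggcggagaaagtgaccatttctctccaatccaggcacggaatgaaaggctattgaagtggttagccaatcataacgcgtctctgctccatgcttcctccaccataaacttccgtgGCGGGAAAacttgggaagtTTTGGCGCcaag
Mcm5: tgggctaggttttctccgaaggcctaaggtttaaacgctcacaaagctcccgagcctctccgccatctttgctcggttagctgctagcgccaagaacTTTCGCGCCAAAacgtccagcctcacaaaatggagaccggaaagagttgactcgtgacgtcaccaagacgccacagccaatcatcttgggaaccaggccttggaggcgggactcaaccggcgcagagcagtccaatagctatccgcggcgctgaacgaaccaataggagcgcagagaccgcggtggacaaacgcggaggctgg
Mcm6: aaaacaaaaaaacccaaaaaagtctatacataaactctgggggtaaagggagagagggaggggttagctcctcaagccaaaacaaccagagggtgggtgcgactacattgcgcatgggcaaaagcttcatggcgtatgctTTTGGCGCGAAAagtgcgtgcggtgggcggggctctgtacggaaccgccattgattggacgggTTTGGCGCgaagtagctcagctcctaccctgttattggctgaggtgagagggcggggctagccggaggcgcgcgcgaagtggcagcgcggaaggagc
Mcm7: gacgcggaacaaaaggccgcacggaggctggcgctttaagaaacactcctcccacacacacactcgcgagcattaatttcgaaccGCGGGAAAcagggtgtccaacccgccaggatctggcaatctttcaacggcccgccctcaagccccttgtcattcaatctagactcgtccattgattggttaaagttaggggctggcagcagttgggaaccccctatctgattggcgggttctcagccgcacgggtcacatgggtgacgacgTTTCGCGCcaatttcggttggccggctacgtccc
Cdt1: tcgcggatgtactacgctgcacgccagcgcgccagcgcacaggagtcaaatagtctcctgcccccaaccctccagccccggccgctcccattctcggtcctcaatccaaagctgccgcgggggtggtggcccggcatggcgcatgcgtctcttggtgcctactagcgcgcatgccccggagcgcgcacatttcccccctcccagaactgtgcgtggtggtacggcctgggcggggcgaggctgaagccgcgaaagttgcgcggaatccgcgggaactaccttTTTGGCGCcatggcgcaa

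Mcm6 held 3 matches, from -110 to -103, from -106 to -99 and from -47 to -40 relative to the start, the first pair overlapping on opposite strands. Mcm3, Mcm5 and Mcm7 held 2 each, and Cdt1 held 1 from +33 to +40. Mcm2 held none of these letters in its window, and its level rose as well. Mcm7 has a further start in the table, whose window held none.

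The MCM2-7 ring is made of 6 subunits, and all 6 genes rose at day 1, as did 13.4% of all genes tested. Mcm6 was at 2, 2.29 and 2.92 FPKM in sham hearts, 6.65, 8.55 and 10.1 at day 1 and 5.15, 7.47 and 5.97 at day 7. Every infarct library was above every sham library, with a log2 fold change of 1.46 ± 0.17 (adjusted p = 0.00213, limma) at day 1 and 1.08 ± 0.17 (adjusted p = 0.00486) at day 7. Mcm5, Mcm3, Mcm2 and Mcm4 had log2 fold changes of 1.22, 1.01, 0.92 and 0.76 at day 1, and all 4 were also called at day 7, at 0.66, 0.65, 0.67 and 0.44. Mcm7, the most abundant subunit in all 9 libraries, was at 5.91, 5.27 and 7.45 FPKM in sham hearts, 12.4, 11.1 and 10.4 at day 1 and 6.13, 11.0 and 7.79 at day 7. Day 1 stood clear of sham, at 0.78 ± 0.19 (adjusted p = 0.0181, limma), while day 7 overlapped it, at 0.35 ± 0.19 (adjusted p = 0.181). The ratio of the highest to the lowest subunit within a library was 3.27, 3.18 and 2.89 in sham hearts, 2.65, 1.94 and 1.57 at day 1 and 1.91, 2.54 and 2.04 at day 7. The ratio was thus smaller in every infarct library than in any sham library. The range in FPKM itself was not always narrower, at 4.66 to 12.4 in day 1 replicate 1 against 2.58 to 7.45 in sham replicate 3. This comparison rests on the estimated division of reads among transcripts, since Mcm7 has 7 transcripts in the data, of which the main one held 54.6% of the FPKM. Exons of Mcm7 also overlap those of Mir25 and Mir93 on the same strand and of Ap4m1 and Cops6 on the opposite strand.

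**Figure D2:**
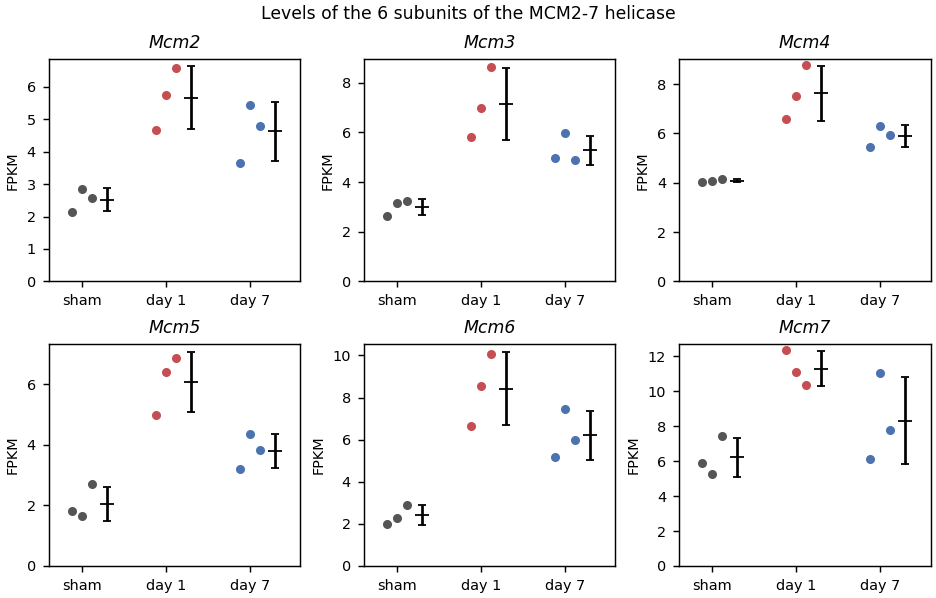
FPKM of the 6 subunits of the MCM2-7 helicase in each library (dots, replicates 1 to 3 from left to right) with the group mean ± SD (n = 3), on axes that start at 0. All day 1 libraries lie above all sham libraries for every subunit, and the day 7 libraries of Mcm7 overlap with sham.

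Upstream of the ring, Cdc6, the loading ATPase, was at 0.335, 0.336 and 0.375 FPKM in sham hearts, 1.07, 1.26 and 1.69 at day 1 and 0.934, 1.25 and 0.938 at day 7. Orc1, the origin recognition subunit that cycles with the cell, was at 0.203, 0.249 and 0.403 FPKM in sham hearts, 0.767, 0.900 and 0.918 at day 1 and 0.479, 0.402 and 0.523 at day 7. Both genes were below the minimum level and were not tested, and their day 1 libraries did not overlap with sham. With no minimum level, limma called both at day 1 (adjusted p = 0.00644 for Cdc6 and 0.00613 for Orc1) and Cdc6 at day 7 (adjusted p = 0.0137). That fit called 33 of the 48 genes higher at day 1 and 18 at day 7, beside 1851 and 2007 of 21763 genes. Orc6, another subunit of the complex, was at 3.85, 3.30 and 3.36 FPKM in sham against 3.89, 4.28 and 4.72 at day 1, a log2 fold change of 0.23 ± 0.12 (adjusted p = 0.173, limma).

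Not all genes of helicase activation were called. Of the 5 tested, 3 rose at day 1 and 2 at day 7, against 13.4% and 15.7% of all genes tested. Their median log2 fold changes were 0.45 and 0.37. Cdc45, which bridges the MCM ring and GINS, was at 1.25, 1.12 and 1.06 FPKM in sham hearts, 2.68, 2.65 and 3.42 at day 1 and 1.41, 2.29 and 1.88 at day 7. The 3 groups did not overlap, and the log2 fold change was 0.87 ± 0.14 (adjusted p = 0.00468, limma) at day 1 and 0.41 ± 0.14 (adjusted p = 0.049) at day 7. The 4 GINS subunits, which form 1 complex, were not all called, and differences among them were not tested. Gins2 was at 3.03, 3.05 and 3.47 FPKM in sham hearts, 4.31, 5.28 and 4.63 at day 1 and 4.25, 5.97 and 3.86 at day 7. Both infarct groups were above sham, by 0.45 ± 0.14 (adjusted p = 0.0393, limma) at day 1 and 0.43 ± 0.14 (adjusted p = 0.043) at day 7. Gins1 rose at day 1 by 0.60 ± 0.19 (adjusted p = 0.0434, limma), and Gins3 was 0.25 ± 0.14 above sham (adjusted p = 0.203). Gins4, the most abundant of the 4, was at 12.4, 10.5 and 11.4 FPKM in sham hearts, 13.1, 12.5 and 11.5 at day 1 and 10.1, 11.1 and 9.48 at day 7. Its groups overlapped with sham, and the 95% intervals of the log2 fold change were -0.10 to 0.32 at day 1 and -0.36 to 0.06 at day 7. Mcm10, an initiation factor below the minimum level, was at 0.303, 0.221 and 0.583 FPKM in sham hearts, 1.25, 1.40 and 1.60 at day 1 and 0.681, 1.07 and 0.704 at day 7. Neither infarct group overlapped with sham, and its mean was 3.84 times that of sham at day 1 and 2.22 times at day 7.

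Primase and the polymerases rose in part. Of 8 genes, 5 rose at day 1 and 2 at day 7, against 13.4% and 15.7% of all genes tested. Their median log2 fold changes were 0.64 and 0.33. Pole, among the rises at both times, had a sham mean under 1 FPKM and passed the minimum level only through the infarct groups. Pole, the catalytic subunit of the leading-strand polymerase epsilon, was at 0.552, 1.07 and 0.988 FPKM in sham hearts, 1.55, 2.66 and 3.06 at day 1 and 2.09, 2.64 and 1.38 at day 7. All infarct libraries were above sham, at 0.86 ± 0.22 (adjusted p = 0.0226, limma) and 0.69 ± 0.22 (adjusted p = 0.0421). Its partner Pole2 rose by 0.80 ± 0.11 at day 1 and 0.60 ± 0.11 at day 7. The primase subunits Prim1 and Prim2 and the polymerase alpha subunit Pola1 rose at day 1, by 0.74, 0.75 and 0.53, and were not called at day 7. Pola2, the other subunit of that enzyme, was 0.22 ± 0.10 (adjusted p = 0.149, limma) above sham at day 1 and 0.30 ± 0.10 (adjusted p = 0.0575) at day 7. Of the lagging-strand polymerase delta, Pold1 and Pold2 belong to this role, and neither was called. Its subunits Pold3 and Pold4, tested with the further pathway genes, were called against sham at day 1, and Pold4 also at day 7. Both day 1 calls were lost without sham replicate 1 or 2 or day 1 replicate 2 or 3. The day 7 call of Pold4 was kept whichever library was left out. Pold1, the catalytic subunit, was 0.33 ± 0.12 above sham at day 1 (adjusted p = 0.0692, limma). Pold2, an accessory subunit, was at 6, 6.39 and 5.44 FPKM in sham hearts, 6.74, 5.10 and 7.21 at day 1 and 4.77, 4.49 and 4.87 at day 7. Every day 7 library was below every sham and every day 1 library, with a log2 fold change against sham of -0.28 ± 0.12 (adjusted p = 0.0947, limma), but the sign depended on the scaling, at 0.025 with libraries rescaled to a common total.

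The clamp, its loader and the joining enzymes were less uniform. Of 8 genes, 5 rose at day 1 and 1 at day 7, against 13.4% and 15.7% of all genes tested. The day 7 count was thus near the share of all genes. Their median log2 fold changes were 0.35 and 0.17. Pcna, the clamp that holds polymerases on DNA and the most abundant of the 48 genes, was at 21.7, 21.5 and 24.5 FPKM in sham hearts, 27.1, 37.0 and 42.2 at day 1 and 23.7, 30.4 and 24.8 at day 7. Day 1 was above sham without overlap, at 0.61 ± 0.16 (adjusted p = 0.0255, limma), and day 7 overlapped it, at 0.21 ± 0.16 (adjusted p = 0.351). Lig1, the ligase that seals Okazaki fragments, was at 2.79, 3.05 and 4.22 FPKM in sham hearts, 6.93, 8.44 and 8.34 at day 1 and 4.55, 6.92 and 4.64 at day 7. The groups did not overlap with sham, and the log2 fold change was 1.04 ± 0.17 (adjusted p = 0.00533, limma) at day 1 and 0.54 ± 0.17 (adjusted p = 0.0391) at day 7. Fen1, the nuclease that trims those fragments, rose by 0.79 ± 0.16 at day 1 (adjusted p = 0.0106, limma). At day 7 it was 0.41 above sham as a sum over transcripts, but its most expressed transcript alone was at -0.87. Of the clamp loader genes, Rfc2 and Rfc3 rose at day 1, by 0.32 and 0.38. Rfc4 was at 5.88, 5.67 and 6.25 FPKM in sham hearts, 5.88, 6.52 and 6.45 at day 1 and 3.42, 6.17 and 4.65 at day 7, and Rfc5 was 0.12 above sham at day 1. Neither was called, and Rfc4 overlapped with sham at both times, at 0.07 ± 0.15 (adjusted p = 0.765, limma) and -0.30 ± 0.15 (adjusted p = 0.163). Rpa2, a subunit of the single-strand binding complex, was at 5.30, 5.60 and 5.74 FPKM in sham hearts, 4.87, 5.21 and 6.11 at day 1 and 5.5, 5.22 and 4.73 at day 7. Its log2 fold change at day 1 was -0.04 ± 0.09, with a 95% interval of -0.25 to 0.17.

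Nucleotide supply held some of the largest rises and a gene that did not follow. Of 5 genes, 4 rose at both times, against 13.4% of all genes tested at day 1 and 15.7% at day 7. Their median log2 fold changes were 0.80 and 0.56. Rrm2, the S-phase subunit of ribonucleotide reductase, was at 1.28, 1.24 and 1.87 FPKM in sham hearts, 5.54, 6.76 and 7.84 at day 1 and 4.12, 7.63 and 4.57 at day 7. Its mean rose from 1.46 ± 0.353 to 6.71 ± 1.15 and 5.44 ± 1.91 FPKM (SD, n = 3). The log2 fold change was 1.64 ± 0.21 (adjusted p = 0.00268, limma) at day 1 and 1.36 ± 0.21 (adjusted p = 0.00444) at day 7. Its partner Rrm1 rose by 0.80 and 0.56. Tk1, the thymidine kinase of the salvage path, rose by 1.15 and 0.84, and Tyms, which makes thymidylate anew, by 0.72 and 0.46. Dut, which hydrolyses dUTP, was at 13.8, 12.2 and 12.3 FPKM in sham hearts, 10.1, 11.2 and 11.7 at day 1 and 8.98, 14.0 and 9.81 at day 7. All day 1 libraries were below all sham libraries, and the log2 fold change was -0.20 ± 0.15 (adjusted p = 0.329, limma), with a 95% interval of -0.53 to 0.13. With libraries rescaled to a common total, that difference was 0.06 and the one of Rpa2 was 0.21, so the sign of both depended on the scaling.

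All 3 genes of chromatin copying rose at both times, against 13.4% of all genes tested at day 1 and 15.7% at day 7. Their median log2 fold changes were 1.11 and 0.90. Chaf1a and Chaf1b had sham means under 1 FPKM and passed the minimum level only through the infarct groups. Chaf1b, a subunit of the histone chaperone CAF-1, was at 0.356, 0.252 and 0.499 FPKM in sham hearts, 1.49, 2.16 and 2.22 at day 1 and 1.65, 2.12 and 2 at day 7. The infarct groups overlapped each other and lay above sham, at 1.11 ± 0.14 (adjusted p = 0.00271, limma) and 1.10 ± 0.14 (adjusted p = 0.00267). Its mean FPKM was 5.31 and 5.22 times that of sham, the largest ratio among the 48 genes at both times. Chaf1a, the other CAF-1 gene listed, rose by 0.81 and 0.64. Uhrf1, which recruits maintenance DNA methylation to newly copied DNA, was at 1.54, 2.28 and 1.94 FPKM in sham hearts, 5.88, 6.80 and 7.87 at day 1 and 3.17, 5.98 and 4.43 at day 7. All infarct libraries were above sham, at 1.43 ± 0.19 (adjusted p = 0.00292, limma) and 0.90 ± 0.19 (adjusted p = 0.0109).

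All 4 tested genes among the S-phase cyclins and E2F factors rose at day 1, and 2 rose at day 7. Of all genes tested, 13.4% and 15.7% rose at these times. E2f1 and E2f8 had sham means under 1 FPKM and passed the minimum level only through the infarct groups. Ccna2, the cyclin A that drives S phase and entry into mitosis, was at 1.63, 1.44 and 2.80 FPKM in sham hearts, 7.43, 8.49 and 11.6 at day 1 and 4.12, 7.30 and 4.12 at day 7. The 3 groups did not overlap, and its log2 fold change of 1.79 ± 0.25 (adjusted p = 0.00326, limma) at day 1 was the largest of the 43 tested genes. At day 7 it was 1.05 ± 0.25 (adjusted p = 0.0148). Ccne2, a cyclin E that acts at the G1 to S transition, was at 1.67, 1.96 and 1.90 FPKM in sham hearts, 3.25, 3.35 and 3.74 at day 1 and 2.20, 2.07 and 2.15 at day 7. Day 1 stood clear of both other groups, at 0.65 ± 0.09 (adjusted p = 0.00311, limma) against sham, while day 7 was 0.15 ± 0.09 above sham (adjusted p = 0.225). Ccne1, the other cyclin E, was below the minimum level, at 0.556, 0.169 and 0.549 FPKM in sham hearts, 1.55, 0.999 and 1.45 at day 1 and 1.26, 1.44 and 0.968 at day 7. Its infarct groups were both above sham and overlapped each other, with means 3.14 and 2.88 times that of sham. E2f1, an activating E2F factor, was at 0.676, 0.445 and 0.859 FPKM in sham hearts, 1.60, 2.25 and 2.40 at day 1 and 2.16, 1.99 and 2.12 at day 7. Its infarct groups overlapped each other and lay above sham. It rose by 0.89 ± 0.14 (adjusted p = 0.00462, limma) at day 1 and 0.90 ± 0.14 (adjusted p = 0.0046) at day 7. E2f8, a repressive member of that family, rose by 0.65 ± 0.20 at day 1 (adjusted p = 0.044, limma) and was not called at day 7.

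Both tested genes of fork protection and recombination rose at day 1, and neither was called at day 7. Of all genes tested, 13.4% rose at day 1 and 15.7% at day 7. Brca1 and Blm, the tested genes, had sham means under 1 FPKM and passed the minimum level only through the infarct groups. Brca1, which protects stalled forks and serves in recombination, was at 0.234, 0.241 and 0.766 FPKM in sham hearts, 1.33, 1.84 and 1.99 at day 1 and 0.800, 1.20 and 0.962 at day 7. Both infarct groups lay above sham, at 0.96 ± 0.18 (adjusted p = 0.00792, limma) and 0.51 ± 0.18 (adjusted p = 0.0579). Blm, a helicase that resolves recombination intermediates, was at 0.720, 0.891 and 0.770 FPKM in sham hearts, 1.21, 1.60 and 1.70 at day 1 and 1.02, 1.49 and 0.965 at day 7. It rose by 0.48 ± 0.14 at day 1 (adjusted p = 0.0326, limma) and was 0.26 ± 0.14 above sham at day 7 (adjusted p = 0.17). Exo1, an exonuclease below the minimum level, was at 0.556, 0.235 and 0.344 FPKM in sham hearts, 0.713, 1.30 and 2.29 at day 1 and 0.809, 1.00 and 0.876 at day 7. Its infarct libraries were all above sham, and the day 1 libraries were spread the most among the untested genes, with an SD of 0.795.

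**Figure D3:**
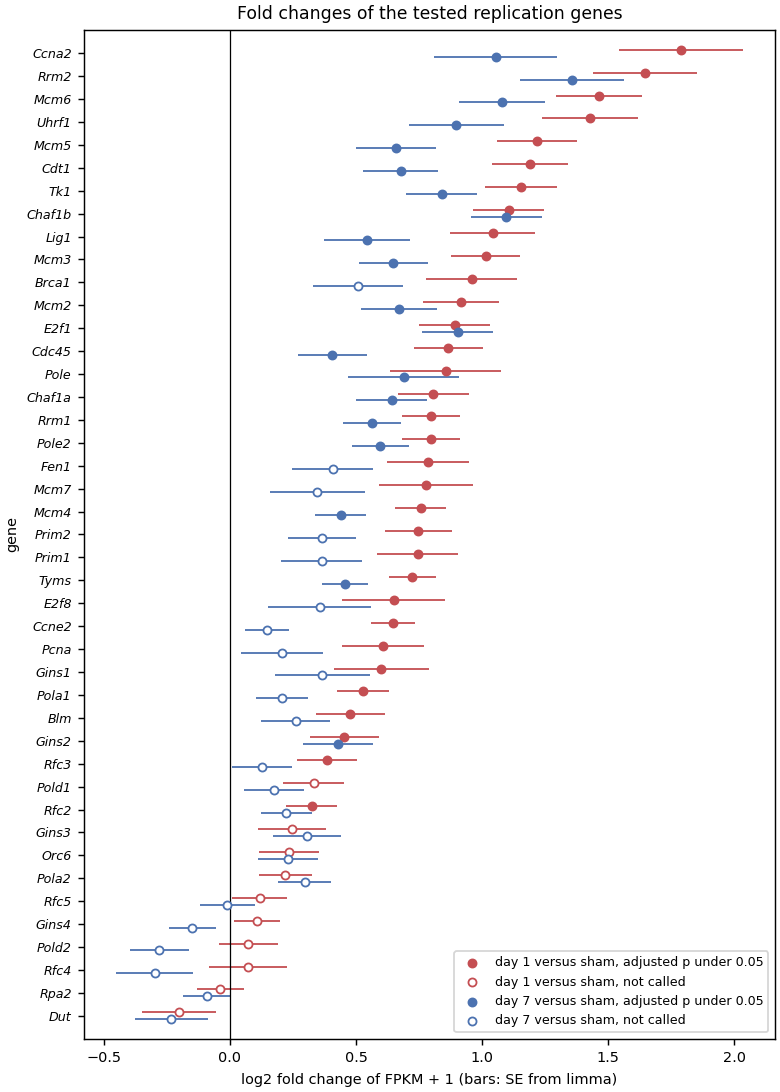
Log2 fold change on the log2(FPKM + 1) scale, with SE from limma, of the 43 tested replication genes at day 1 and day 7 against sham; filled points have an adjusted p under 0.05. Ccna2 at 1.79 and Rrm2 at 1.64 are farthest to the right at day 1, and Dut and Rpa2 are the 2 genes below 0 there.

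**Figure D4:**
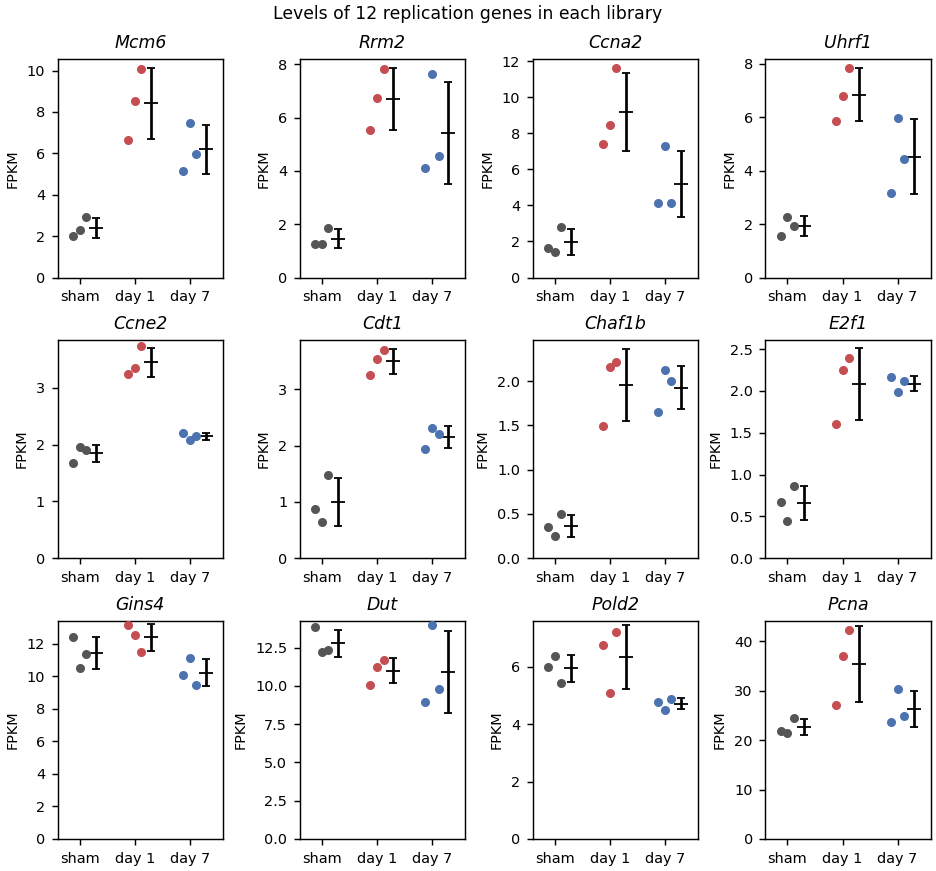
FPKM in each library (dots, replicates 1 to 3 from left to right) with mean ± SD (n = 3) for 12 replication genes, on axes that start at 0. Chaf1b and E2f1 are at like levels at day 1 and day 7, and Ccne2 at day 7 is near sham. Dut, Gins4 and Pold2 differ little from sham, although Dut at day 1 and Pold2 at day 7 lie below all sham libraries.

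Between the infarct times, 1 of the 43 genes fell and 0 rose from day 1 to day 7, where 2.14% of all genes tested fell and 2.71% rose. The gene was Ccne2, whose mean went from 3.45 ± 0.259 to 2.14 ± 0.0646 FPKM (SD, n = 3), at -0.50 ± 0.09 (adjusted p = 0.0223, limma). That call was kept in 14 of its 21 alternative settings and its adjusted p ranged from 0.0165 to 0.127. It was lost without day 1 replicate 2, day 7 replicate 2 or day 7 replicate 3, with an adjusted p of up to 0.0728. At an unadjusted p under 0.05, 20 genes were lower and 0 higher, against 11.8% and 11.4% of all genes tested. The sign was negative in 40 of 43 genes, with a median of -0.29 against -0.01 for all genes tested. In 15 of the 48 genes every day 7 library was below every day 1 library, as in 14.1% of all genes tested, and in 0 was it above, against 13.1%. Among the 15 were Cdt1, Mcm5, Cdc45, Lig1 and Ccna2, with adjusted p of 0.0883, 0.082, 0.0928, 0.129 and 0.122 in limma. Chaf1b and E2f1 were at the other end, with 95% intervals of the day 7 to day 1 difference of -0.33 to 0.31 and -0.31 to 0.33. Because both infarct groups were compared with the same 3 sham libraries, the 2 sets of calls against sham are not independent. In all, 20 genes rose at both times, 13 were called only at day 1 and 10 at neither. Rescaled to a common total, 33 rose at both times, 3 were called only at day 1, 1 only at day 7 and 6 at neither. Only the test of Ccne2 showed a difference between the times.

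Other genes of replication, chosen from knowledge of the pathway, moved less uniformly than the 48. For this and the further lists, the shares of all genes tested were 13.4% rising and 14.7% falling at day 1. At day 7 they were 15.7% and 17.3%. Rescaled to a common total, 2445 of the 13514 genes tested rose and 601 fell at day 1, and 3809 and 527 at day 7. Of 41 further replication genes, 37 were tested, and 15 rose and 3 fell at day 1, with a median of 0.25, while 9 rose and 3 fell at day 7. Rescaled to a common total, 18 rose and 1 fell at day 1, and 17 rose and 0 fell at day 7. Without 1 library the rises at day 1 came to 5 (sham replicate 2), 6 (day 1 replicate 2), 8 (sham replicate 1) and 9 (day 1 replicate 3), and those at day 7 to 4 (sham replicate 1 or 2) and 5 (day 7 replicate 2). Clspn, a fork checkpoint mediator, went from 0.342 ± 0.113 FPKM in sham to 2.15 ± 0.449 and 2.12 ± 0.768 (SD, n = 3), a log2 fold change of 1.22 ± 0.19 (adjusted p = 0.00433, limma) at day 1. With a sham mean under 1 FPKM, it passed the minimum level only through the infarct groups. Dbf4, the activator of the origin-firing kinase, rose by 0.95 at day 1, and Dnmt1, the maintenance methyltransferase, by 0.77 at day 1 and 0.53 at day 7. Topbp1, an initiation and checkpoint scaffold, rose by 0.77 and 0.57. Gmnn, which encodes the inhibitor of CDT1, fell from 37.3 ± 6.2 to 20.5 ± 5.3 FPKM at day 1, by 0.84 on the log2 scale (adjusted p = 0.0283, limma). At day 7 it was at 28 ± 7.27 FPKM and was not called. The fall of Gmnn was lost without sham replicate 2 or 3 or day 1 replicate 1 or 2 (adjusted p of up to 0.0941). Rnaseh2a, the catalytic subunit of RNase H2, fell by 0.55 at day 1 and by 0.47 at day 7. Both of these falls of Rnaseh2a were lost with libraries rescaled to a common total (adjusted p = 0.145 and 0.426).

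Among all genes tested, 13.4% rose and 14.7% fell at day 1, and 15.7% and 17.3% at day 7. On a common total, 2445 of these 13514 genes rose at day 1 and 3809 at day 7. Of 19 other genes of nucleotide supply, 3 rose and 3 fell at day 1, and 0 rose and 3 fell at day 7. Rescaled to a common total, 7 rose and 0 fell at day 1, and 6 rose and 0 fell at day 7. The falls at day 1 came to 1 without any of sham replicates 1 to 3 or day 1 replicates 1 and 2, as did those at day 7 without sham replicate 2. Dck, a deoxycytidine salvage kinase, rose by 1.21 ± 0.26 at day 1 (adjusted p = 0.0115, limma), and Umps by 0.51. Umps, of pyrimidine synthesis, also fell from day 1 to day 7, by 0.45 ± 0.10 (adjusted p = 0.0411). Rrm2b, the reductase subunit used outside S phase, was at 11.8, 13.5 and 12 FPKM in sham hearts, 8.69, 8.13 and 8.06 at day 1 and 6.87, 7.90 and 8.53 at day 7. All infarct libraries were below sham, at -0.53 ± 0.09 (adjusted p = 0.00608, limma) and -0.62 ± 0.09 (adjusted p = 0.004), opposite in sign to Rrm2. Rescaled to a common total, Rrm2b was at -0.29 (adjusted p = 0.11) and -0.30 (adjusted p = 0.0778).

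Upstream, 8 of 21 tested genes of G1 and the restriction point rose and 1 fell at day 1, and 8 rose and 1 fell at day 7. Among all genes tested, 13.4% rose and 14.7% fell at day 1, and 15.7% and 17.3% at day 7. Rescaled to a common total, 11 of the 21 rose at day 1 and 14 at day 7, and 0 fell at either time. The rises came to 4 without sham replicate 2 and 5 without day 1 replicate 2 at day 1, and to 5 without sham replicate 1 or day 7 replicate 1 at day 7. Fbxo5, an inhibitor of the anaphase-promoting complex, and the transcription factor gene Myc rose at day 1, by 0.87 and 0.85, and Skp2 and Rbl1 by 0.58 each. Without sham replicate 2 the calls of Fbxo5 and Myc were lost, as were Myc without sham replicate 3 and Fbxo5 and Rbl1 without day 1 replicate 2 (adjusted p of up to 0.0579). The kinase gene Cdk4 rose by 0.54 at day 1 and 0.42 at day 7, the latter lost without sham replicate 2 (adjusted p = 0.0573). Mycn, a MYC-family gene, was at 0.851 ± 0.108 FPKM in sham, 0.854 ± 0.179 at day 1 and 2.15 ± 0.454 at day 7, a rise of 0.76 ± 0.14 from day 1 to day 7 (adjusted p = 0.0261, limma). Its sham and day 1 means were under 1 FPKM, so it passed the minimum level only through day 7. Cdk inhibitor genes were mixed. Cdkn1a, the p21 gene, was at 37.2 ± 12.2 FPKM in sham, 33.2 ± 1.23 at day 1 and 17.2 ± 2.9 at day 7, a log2 fold change of -1.04 ± 0.21 at day 7 (adjusted p = 0.00935, limma). It also fell from day 1 to day 7, by 0.92 ± 0.21 (adjusted p = 0.0431). Cdkn1c, the p57 gene, fell by 0.78 ± 0.12 at day 1 (adjusted p = 0.00438, limma) and by 0.57 ± 0.12 at day 7, and it was called at neither time on a common total. Cdkn2b, the p15 gene, rose at day 7 by 1.14 ± 0.20 (adjusted p = 0.00612, limma). Cdkn1b, Cdkn2c and Cdkn2d were called at neither time, and Cdkn2a was below the minimum level.

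Mitotic genes, which act after S phase, showed larger differences. Of 21, 20 rose at day 1 and 20 at day 7, with medians of 1.58 and 1.03, and Cenpa was called at neither time. Among all genes tested, 13.4% rose and 14.7% fell at day 1, and 15.7% and 17.3% at day 7. Leaving out 1 library gave 20 mitotic rises at day 1 in every case. At day 7 it gave 6 without sham replicate 2, 9 without sham replicate 1 or day 7 replicate 2, and 15 to 19 otherwise. The mitotic kinase gene Cdk1 went from 1.70 ± 0.623 to 11.1 ± 3.76 and 6.85 ± 0.73 FPKM (SD, n = 3). Prc1, a spindle midzone protein, rose by 2.25 ± 0.21 at day 1 (adjusted p = 0.0011, limma). Kif20a, a cytokinesis motor, rose by 1.55 at day 1 and fell by 0.87 ± 0.18 from day 1 to day 7 (adjusted p = 0.0337). Of 16 genes of homologous recombination, 9 were tested, and 3 rose and 1 fell at day 1, with Rad51ap1 at 0.66 and Rbbp8 at 0.50, the latter lost without sham replicate 1 or 3 or day 1 replicate 2 (adjusted p of up to 0.0772). Rises in that list came to 1 without sham replicate 1 or day 1 replicate 2, falls to 0 without any 1 library, and on a common total 4 rose and 0 fell. Without both libraries with airway markers, 8 mitotic genes rose at day 1 and 4 at day 7, and 2 and 3 of the further replication genes. The nucleotide supply list then held 0 rises at day 1, as did the lists of G1 and homologous recombination genes.

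The order of libraries within a group was shared by most replication genes. Day 1 replicate 3 was the highest of its group in 38 of 48 genes and replicate 1 the lowest in 40. Day 7 replicate 2 was the highest in 37 and sham replicate 3 in 33. The median FPKM of the 48 genes was 1.90, 2.08 and 2.57 in sham hearts, 3.97, 4.72 and 4.95 at day 1 and 3.38, 4.30 and 3.44 at day 7. The median of the mitotic genes had the same highest library in each group, at 1.58, 5.79 and 4.85 FPKM. Summed neutrophil markers were 64.4, 47.4 and 60.8 FPKM in sham hearts, 122, 322 and 319 at day 1 and 33.1, 70.6 and 29.8 at day 7. At day 7 these neutrophil sums overlapped those of sham. The sum of 4 markers of neutrophil precursors, which divide in the marrow, was 0.0767 to 0.238 FPKM in sham, 0.553 to 1.25 at day 1 and 1.16 to 1.49 at day 7, with Elane and Ctsg at 0 in all sham libraries. Monocyte and macrophage markers summed to 490 to 803 FPKM in sham, 777 to 1218 at day 1 and 998 to 1273 at day 7. Single markers of this list differed in direction. Ccr2 was at 41.3 to 64.1 FPKM at day 1 and 7.35 to 14.6 at day 7. Cd68, Itgam and Ly6c2 were also lower at day 7 than at day 1 without overlap. Lyz2, the largest part of the sum, was higher at day 7, at 349 to 600 and then 654 to 855 FPKM, as were Csf1r and C1qa. Adgre1 and Cd14 overlapped between the times. Fibroblast markers summed to 999 to 1177, 1205 to 1557 and 3067 to 4316 FPKM, and endothelial markers to 1006 to 1692, 968 to 1348 and 1108 to 1284 FPKM. The fibroblast sum was highest at day 7 without overlap, whereas endothelial sums overlapped among all groups. Single fibroblast markers differed from their sum: Pdgfra was at 40.8, 41.7 and 34.6 FPKM at day 1 and lower, at 29.2, 33.3 and 31, at day 7. The sum of 5 T and NK cell markers was 53.9 FPKM in day 7 replicate 2, the library in which most replication genes were highest at day 7, against 2.46 and 3.29 in the other 2. This sum rested on Cd3e, Cd3d, Cd8a and Cd4, while Nkg7 was at 1.92 FPKM there against 1.26 and 1.41. The same library held the 185 FPKM of skeletal muscle markers. Erythroid markers summed to 205 to 597 FPKM in sham, 469 to 1853 at day 1 and 758 to 1940 at day 7, and 4 B cell markers to 0.483 to 2.64, 0.897 to 7.11 and 2.12 to 6.05. The part of these cell types in the levels of the replication genes was not tested.

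**Figure D5:**
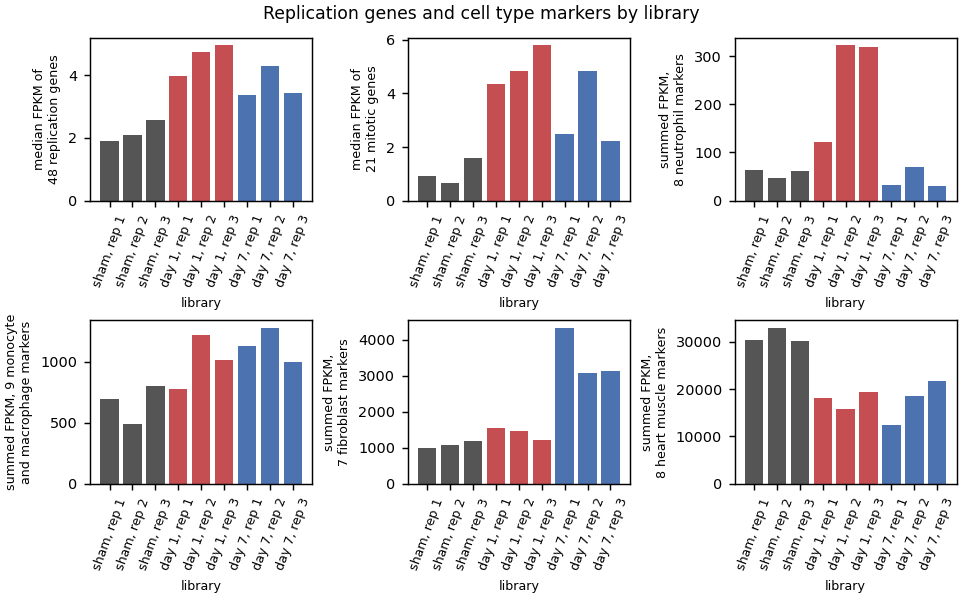
Bars give, for each library, the median FPKM of the 48 replication genes and of 21 mitotic genes, and the summed FPKM of markers of neutrophils, monocytes and macrophages, fibroblasts and heart muscle cells, on axes that start at 0. The replication and mitotic medians have the same highest library in each group, neutrophil markers are highest in day 1 replicates 2 and 3, and summed fibroblast markers are highest at day 7.

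RefSeq windows around the start were found by symbol for 38 of the 48 genes, 44 windows in all, and not for Ccna2, Ccne2, Exo1, Gins1, Gins2, Gins4, Mcm4, Pole, Prim2 and Rfc2. An E2F-type site, by the letters given with the printed windows, was in a window of 14 of 38 genes, or 36.8%, against 2.6% of the 27025 genes in the table. From -150 to +50 the shares were 34.2% and 1.91%. The genes were Cdc6, Cdt1, Gins3, Lig1, Mcm3, Mcm5, Mcm6, Mcm7, Orc1, Pola1, Pold1, Pole2, Rfc3 and Uhrf1. Of these 14, 10 rose at day 1, Gins3 and Pold1 were not called, and Cdc6 and Orc1 were not tested. Of the 24 genes without a match in these windows, 15 rose, 7 were not called and 2 were not tested, and among the 15 were Rrm2 and Chaf1b. The windows follow the starts listed in RefSeq, which need not be the main start of a gene. A gene without a match here may thus hold these letters at another start. A CCAAT box, searched as CCAAT on both strands, was in windows of 23 of 38 genes, or 60.5%, against 41.1% of all. The cell cycle homology element, searched as TTTGAA or TTCGAA on both strands, was in 8 of 38, or 21.1%, against 21.7%. The shares are of genes with at least 1 window that holds the letters, and a match is not evidence of binding in these hearts.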

How the data were processed

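Bulk RNA-seq values of 9 wild-type heart libraries were used. The deposited values are FPKM per transcript, which the authors made, per the series' design text, to adjust for gene length and depth. HISAT2 2.1.0, HTSeq 0.11.2, FastQC 0.11.9 and the build GRCm39 are named in the submitters' processing notes. Not given in the sources used here are the annotation release, strand use and the tool that divided reads among transcripts. Of positive values, 11.8% were under 1e-06, so whole reads could not be recovered.

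FPKM were summed over the 55361 transcript entries to 25468 genes, of which 13514 had a mean of at least 1 FPKM and were tested. limma 3.58.1 (R 4.3.3) was fitted to log2(FPKM + 1) with a variance trend and 1 mean per group over all libraries. Tests were two-sided, with Benjamini-Hochberg adjustment. Fold changes on this scale understate changes of low genes. Exact permutation of 3 against 3 libraries gives no two-sided p below 0.1 and was not used. The procedure was tested on simulated data.

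The genes, lists and tests were chosen with earlier results of these data known. Every one of the 48 genes may be named, and full values are given for the most abundant and most changed of each role, those against its direction and those called between the infarct times. Of the 126 further pathway genes, called ones with the largest changes and all Cdk inhibitors are named. Of 77 marker genes, Trbc2 was not found. Promoter windows and gene overlaps come from RefSeq and GENCODE M21 on GRCm38, another build than that of the authors. Exons of 17 of the 48 genes overlap another gene there, 2 on the same strand. The 22 alternatives changed the pseudocount, minimum level, scaling, limma options, groups fitted, replicate block, array weights, transcript used and libraries left out. Those for the pathway lists were chosen after seeing the data.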

Additional observations from a re-analysis of the deposited data

Results flagged for a closer look

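In 5 genes the effect against sham differed between the infarct times by limma's test of day 7 against day 1 (adjusted p under 0.05). Among the 48 replication genes this was Ccne2, at -0.50 on the log2 scale. Among the further pathway genes it was Umps at -0.45, Mycn at 0.76, Cdkn1a at -0.92 and Kif20a at -0.87. The 5 came from the tested ones among the 48 genes and 126 further pathway genes. Of all genes tested, 4.85% were called in either direction by that test. All 5 calls were lost with libraries rescaled to a common total, with the replicate block and without both libraries with airway markers. Each was also lost in fits that left out 1 library, in 3 for Ccne2, 4 for Mycn, 6 for Kif20a, 7 for Cdkn1a and 8 for Umps, with adjusted p of up to 0.0728, 0.0873, 0.0976, 0.121 and 0.118 in limma. Day 1 replicate 2 was among the libraries left out for all 5.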

How the results depend on the processing

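Over 22 alternatives, the counts of 33 rises at day 1 and 20 at day 7 stayed within 1.5 times these values, with 0 falls at either time and 0 rises and 1 fall from day 1 to day 7, except as follows. A minimum mean of 5 FPKM left 15 of the 48 genes tested, of which 9 rose at day 1 and 7 at day 7, and Ccne2 was not among them, so 0 fell from day 1 to day 7. Rescaled to a common total (TPM), 36 rose at day 1, 34 at day 7 and 0 fell between the times. Of the 13514 genes tested, 2445 rose at day 1 and 3809 at day 7 on that scale. That scaling moved the median of all genes to 0.23 at day 1 and 0.30 at day 7, beside which the replication genes had medians of 1.03 and 0.70. The share of higher among all calls went from 47.7% to 80.3% at day 1, from 47.6% to 87.8% at day 7 and from 55.9% to 61.1% between the times. Without both libraries with airway markers, 14 rose at day 1, 7 rose at day 7 and 0 fell between the times. A fit of only the 2 groups compared called 1 fall at day 7, of Pold2, and 0 between the times. Leaving out each library gave 24 to 33 rises at day 1, 14 to 21 rises at day 7, 0 to 2 falls at day 7 (Rfc4 and Dut without day 7 replicate 2, and 1 without day 1 replicate 2) and 0 to 2 falls between the times (0 without day 1 replicate 2, day 7 replicate 2 or day 7 replicate 3, and Cdt1 with Ccne2 without sham replicate 3). Of the calls, 14 of 33, 7 of 20 and 0 of 1 were kept in every alternative that tested them, and none of these genes' called differences changed sign. Over all genes, rises ranged from 256 to 2514 at day 1, from 1078 to 3809 at day 7 and from 34 to 584 between the times, and falls from 146 to 3027, from 527 to 2618 and from 26 to 466.

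With the replicate number as a block, 30 genes rose at day 1, 19 at day 7 and 0 fell between the times. Same-numbered libraries had correlations of their deviations from the group means of -0.37 to 0.27, so the numbers were not taken as pairs.

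Some differences changed sign, and the cause was not tested; those of the 48 genes were not called. Under TPM these were Dut at 0.057 and Rpa2 at 0.21 at day 1. At day 7 they were Pold2 at 0.025, Dut at 0.10, Rpa2 at 0.22, Rfc5 at 0.32 and Gins4 at 0.19, and among the further genes Asf1a, a called fall, at 0.045. Between the times they were Chaf1b at 0.049, Dut at 0.044, Rpa2 at 0.017, Orc6 at 0.066 and Gins2 at 0.042. Median-ratio normalisation gave Rfc5 0.011 at day 7 and Orc6 9.7e-05 between the times, and quantile normalisation gave Ccne2 -0.0053 at day 7. The most expressed transcript gave Fen1 -0.87 at day 7, and E2f1 -0.17 and Orc6 0.047 between the times. Between the times, array weights gave 0.035 for Chaf1b, 0.041 for Dut and 0.051 for Orc6, and leaving out the airway libraries gave 0.043 for Chaf1b and 0.0404 for Gins2. Leaving out 1 library at a time gave -0.013 to 0.20 for Pold2 and -0.12 to 0.021 for Rpa2 at day 1, and -0.10 to 0.047 for Rfc5 at day 7. Between the times it gave -0.13 to 0.058 for Chaf1b, -0.0034 to 0.16 for Pola2, -0.21 to 0.087 for Dut, -0.11 to 0.087 for E2f1, -0.11 to 0.025 for Rpa2, -0.00048 to 0.16 for Gins3, -0.12 to 0.059 for Orc6 and -0.18 to 0.079 for Gins2. The window from -150 to +50 held an E2F-type site in 13 genes, a CCAAT box in 20 and a cell cycle homology element in 5. Depth limits could not be given, since the reads behind each FPKM are unknown.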
